A study of Mus musculus with 6 samples.

Results

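The genes described here are 9 liver genes that divide by the age at which the liver is known to use them. *Alb*, *Afm*, *Gc* and *Ttr* encode plasma carrier proteins made by mature hepatocytes, and *Afp*, *H19*, *Igf2*, *Gpc3* and *Dlk1* are known as genes of the fetal liver that fall silent after birth. They were chosen by name, and all 9 were found among the 24346 genes of the deposited table. RNA from whole livers was sequenced in 6 male C57/BL6 mice aged 8 weeks, 3 labelled wt and 3 labelled med23 ko. The study's names for these genotypes are *med23*f/f, the controls, and *med23*Δli, and "*med23*Δli-labelled" stands here for the label med23 ko. Every mouse received 1 intraperitoneal injection of CCl4 at 0.6 μl per g body weight, diluted in sunflower oil, and was taken 24 hours later. Both genotypes carry the floxed *Med23* allele, and the second also carries Cre driven by the *Albumin* promoter, which acts in hepatocytes and leaves *Med23* in the other cells of the liver. MED23 is a subunit of the Mediator complex, which links transcription factors to RNA polymerase II. CCl4 injures the liver once hepatocytes have turned it into a radical.

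No liver without CCl4 was sequenced, so a change caused by the toxin itself could not be measured, and the comparison answers which of these genes differed between the genotypes 1 day after injury. The Cre transgene uses the promoter of *Alb*, one of the genes described. Values are FPKM, fragments scaled by transcript length and library size, which can be compared between genes. The number of reads behind each gene's value is unknown. A gene was tested where its mean over all 6 libraries reached 0.5 FPKM, which kept 11956 genes, and 6 of the 9 genes passed this filter. Adjusted p-values are from limma with Benjamini-Hochberg adjustment over all genes tested, on the log2(FPKM + 0.1) scale, which understates the change of low genes. Intervals are 95% intervals from the same fit.

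Albumin, alpha-fetoprotein, afamin and the vitamin D-binding protein form one protein family, made by duplication of a common ancestral gene. *Afp* and *Alb* are both active in the fetal liver, and around birth *Afp* is shut down by repressors that include ZHX2, ZBTB20 and ZFHX3, whereas *Alb* stays on. *Afp* can return in regenerating liver and in liver tumours, which is why it serves as a marker of both. *H19*, *Igf2* and *Dlk1* are imprinted, that is, expressed from the copy of one parent.

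The family lies together on chromosome 5 of mm10. *Alb* occupies bases 90460897 to 90476602 of the plus strand, *Afp* follows 14.1 kb further on at 90490737 to 90508907, and *Afm* lies 10024 bases beyond *Afp* at 90518932 to 90553543. *Gc* stands 1003 kb before *Alb*, on the minus strand at 89417522 to 89457898. The bases 150 to 21 before the RefSeq start of *Alb*, *Afp* and *Afm* (GRCm38.p6, the assembly of mm10) are shown to compare the promoters of 3 adjacent relatives, of which 1 differed between the genotypes. Capitals mark CCAAT, or its reverse complement, and TATAAA, common elements of promoters.
Alb, chr5:90460720-90460849, plus strand: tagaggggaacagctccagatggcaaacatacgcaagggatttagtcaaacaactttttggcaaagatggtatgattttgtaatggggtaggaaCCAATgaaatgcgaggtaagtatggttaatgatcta
Afp, chr5:90490564-90490693, plus strand: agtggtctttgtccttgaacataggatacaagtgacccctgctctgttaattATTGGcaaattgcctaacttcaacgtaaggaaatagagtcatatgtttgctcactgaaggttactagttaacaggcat
Afm, chr5:90518799-90518928, plus strand: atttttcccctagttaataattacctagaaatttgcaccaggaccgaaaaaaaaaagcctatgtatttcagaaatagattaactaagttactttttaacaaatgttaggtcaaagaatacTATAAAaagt

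Motifs were counted on either strand over the 250 bases before the start, in these genes and in all 32851 RefSeq promoter windows. CCAAT was found in *Alb*, *Afp*, *Afm* and *Gc*, against 33.8% of all windows. It began 56 and 15 bases before the RefSeq start in *Alb*, 98 in *Afp*, 192 in *Afm* and 225 in *Gc*. It was also found in *Gpc3*, 166 bases before the start, and in 1 of the 4 *Igf2* windows, 231 bases before the start, and not in *Dlk1*. In *Alb* and *Afp* the RefSeq start lies 27 and 23 bases before the GENCODE start, and in *Afm* the GENCODE start lies 17 bases before that of RefSeq, so the distances given here depend on the annotation. A TATAAA box was found in *Afp* and *Afm*, 7 and 30 bases before the RefSeq start, and not in *Alb* or *Gc*, against 12.4% of all windows. AGGTCA, a half-site of nuclear receptors, was found in *Afm* and in 1 of the 4 *Igf2* windows, against 14.0%, and TGTTTAC, a motif of FOXA factors, was found among the promoters searched in *Dlk1* alone, against 3.17%. Its 2 matches there began 87 and 67 bases before its start. Of these motifs, none overlapped another by its letters in the *Alb*, *Afp*, *Afm* and *Gc* windows. *H19* had no window among these, and *Ttr* was not searched.

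Before the genes, the libraries. *Med23* had 3.42, 2.97 and 4.14 FPKM in the controls and 3.40, 3.40 and 2.91 FPKM in the *med23*Δli-labelled livers (log2 fold change -0.11, adjusted p = 0.685, limma), so its level did not separate the groups and does not check their labels. All 8 endothelial markers fell, their summed level being 92.5 to 132 FPKM in the controls and 50.4 to 54.1 FPKM in the other group. Of the 8 stellate and fibroblast markers 2 fell, and none of the 8 macrophage, 7 cholangiocyte and 5 neutrophil markers tested passed with limma, while 2, 0 and 3 of them were lower at an unadjusted p under 0.05. All 10 hepatocyte markers, among them *Alb* and *Ttr*, passed the filter and 1 rose, while 2 were higher and 3 lower at an unadjusted p under 0.05. Of the erythroid and adipose markers tested, 4 and 3, 1 each rose, the erythroid one being tested only through the *med23*Δli-labelled livers, and no T or B cell marker reached the filter. The second *med23*Δli-labelled liver stood apart in adipose genes, with a summed level of 45.7 FPKM over 8 markers against 1.32 to 6.25 FPKM in the others, and *Adipoq* at 5.65 FPKM in it, 0.0907 FPKM in the third liver of its group and listed at 0 in the other 4. *Alb*, *Afm*, *Gc* and *Ttr* are hepatocyte products, while the cells that held the RNA of the fetal genes were not identified. In whole liver fewer cells of a type and less RNA per cell cannot be told apart. The part of these shifts in the results below was not tested, and the results for *Afp* are given with and without the second liver.

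Of the 4 mature genes none passed the limma test in either direction, nor did any at an unadjusted p under 0.05, and of the 5 fetal genes *Afp* fell while *Gpc3* did not pass and the other 3 lay under the filter. Among all genes tested, 9.48% fell and 11.6% rose at an adjusted p under 0.05, and the median log2 fold change was 0.02. The balance depended on the scaling, since 935 genes rose and 1605 fell when libraries were rescaled without the 50 most abundant genes, against 1384 and 1133 as deposited. With a change of more than 2-fold added, 3.45% of all genes fell and 4.45% rose. *Afp* is the member that met both criteria. The levels spanned the whole range of the table, from *Alb*, the most abundant gene in 5 of the 6 libraries, to *Dlk1*, listed at 0 in 3 of them.

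**Figure D1:**
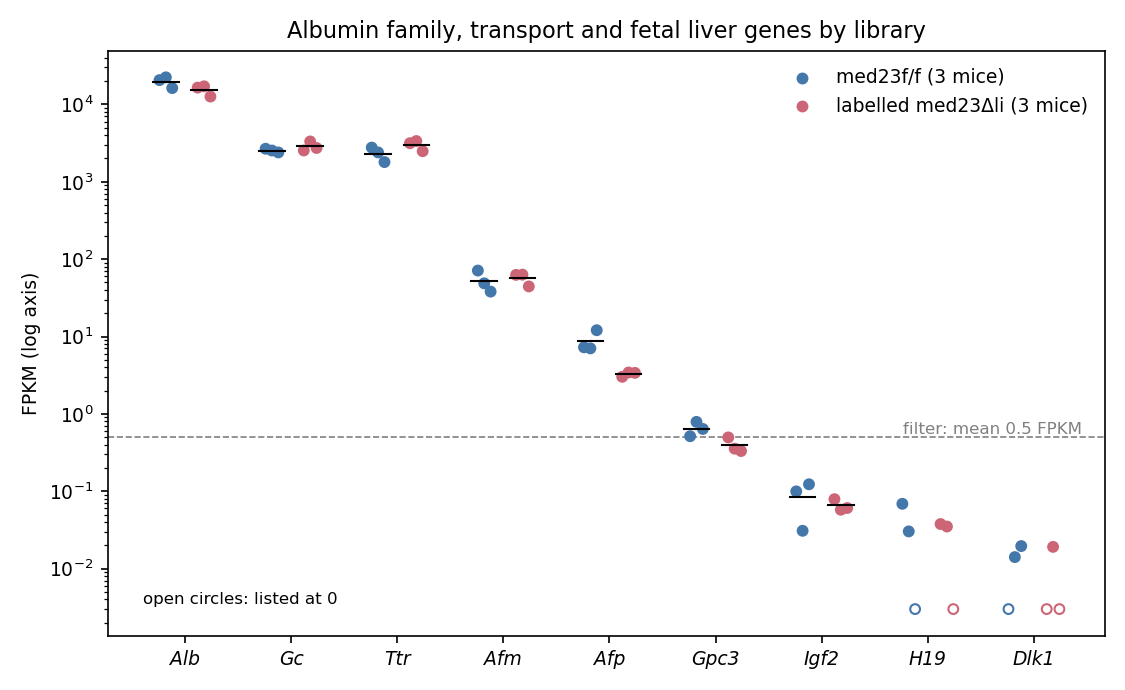
FPKM of the 9 genes in each library on a log axis, with 3 mice per group, horizontal bars at group means where no library was at 0, open circles for values listed at 0 and a dashed line at the filter of 0.5 FPKM. *Alb* lay at 12624 FPKM or more in every library, *Afp* between 3.01 and 12.1 FPKM with the groups apart, and *Igf2*, *H19* and *Dlk1* under 0.2 FPKM throughout.

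*Alb* encodes albumin, the main protein of plasma, which holds its osmotic pressure and carries fatty acids, bilirubin and many drugs. It had 20597, 22376 and 16252 FPKM in the controls and 16478, 17126 and 12624 FPKM in the *med23*Δli-labelled livers. The third mouse of each group was the lowest of its group, and the ranges overlapped. The log2 fold change was -0.36 (SE 0.20, interval -0.83 to 0.12, adjusted p = 0.239, limma), which is a level of 0.781-fold with an interval from 0.562 to 1.08. Quantile normalization put the log2 fold change at 0.25. That method sets each value by rank, so it cannot show a change among libraries where *Alb* ranks first. *Alb* made up 2.71% to 3.44% of the summed FPKM of the control libraries and 2.13% to 2.71% of the others. It ranked first in every library but the third control, where it ranked 3.

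*Gc* encodes the vitamin D-binding protein, which also captures actin released from damaged cells. Its values were 2671, 2534 and 2394 FPKM in the controls and 2538, 3321 and 2733 FPKM in the *med23*Δli-labelled livers. The first value of the second group fell among the controls. The log2 fold change was 0.17 (SE 0.16, interval -0.20 to 0.53, adjusted p = 0.464, limma), or 1.12-fold with an interval from 0.873 to 1.45.

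*Ttr* encodes transthyretin, the carrier of thyroxine that also holds the retinol-binding protein in the circulation. It is no relative of albumin in sequence. It had 2766, 2394 and 1796 FPKM in the controls and 3151, 3361 and 2484 FPKM in the *med23*Δli-labelled livers. Of the second group the third liver alone fell within the controls' range. The log2 fold change was 0.38 (SE 0.21, interval -0.10 to 0.86, adjusted p = 0.215, limma), or 1.30-fold with an interval from 0.935 to 1.81.

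*Afm* encodes afamin, a carrier of vitamin E and of the lipid-bearing Wnt proteins. It had 71.2, 48.7 and 38.1 FPKM in the controls and 62.6, 63.0 and 44.4 FPKM in the *med23*Δli-labelled livers. All 3 values of the second group lay inside the range of the controls. The log2 fold change was 0.14 (SE 0.25, interval -0.43 to 0.71, adjusted p = 0.719, limma), and it was -0.07 without the third control, so no direction can be given.

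*Afp*, the fetal counterpart of albumin, is the member with a called change. It had 7.25, 7.03 and 12.1 FPKM in the controls and 3.01, 3.43 and 3.39 FPKM in the *med23*Δli-labelled livers. Every value of the second group was below every control, and the 3 values of that group lay close together while the third control was the highest of all. The means were 8.78 ± 2.84 and 3.28 ± 0.229 FPKM (SD, n = 3 each). *Afp* fell by 1.35 on the log2 scale (SE 0.22, interval -1.86 to -0.85, adjusted p = 0.00763, limma), a level 2.55-fold lower. An exact permutation test, two-sided, of the 3 and 3 values gave p = 0.1, the smallest it allows. Without the second *med23*Δli-labelled liver the log2 fold change was -1.38 (adjusted p = 0.0324, limma), and without the third control -1.10 (adjusted p = 0.00417, limma). All 8 endothelial markers fell in the same livers, with a median log2 fold change of -0.92, and their part in the change of *Afp* was not tested.

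**Figure D2:**
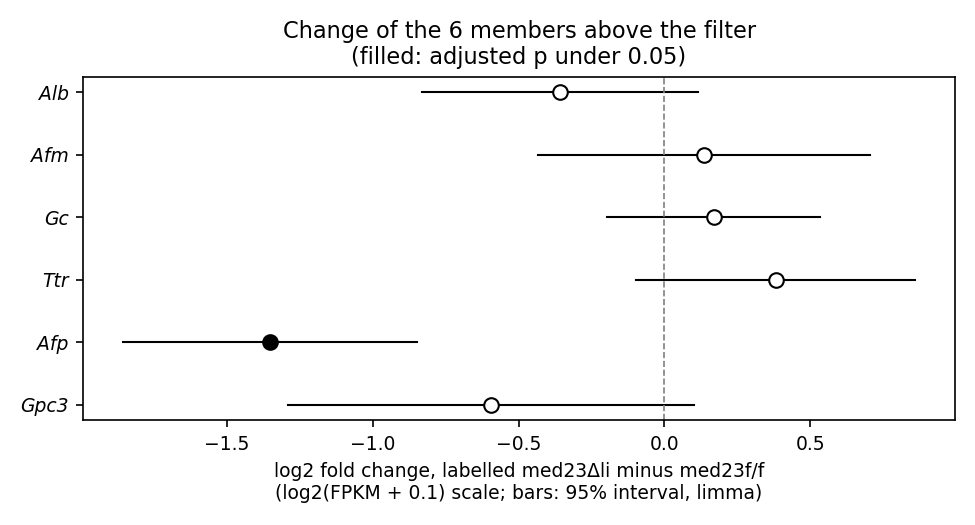
Log2 fold change of the 6 genes above the filter, labelled *med23*Δli minus *med23*f/f, with 95% intervals from limma, and filled symbols for an adjusted p under 0.05. *Afp* at -1.35 is the one filled point, and the intervals of *Alb*, *Afm*, *Gc*, *Ttr* and *Gpc3* cross 0.

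*Gpc3* encodes glypican 3, a cell-surface proteoglycan that restrains growth signalling and that is known as a marker of liver cancer. It lies on chromosome X, minus strand, 52272426 to 52613950. It had 0.515, 0.789 and 0.638 FPKM in the controls and 0.496, 0.355 and 0.331 FPKM in the *med23*Δli-labelled livers. Each value of the second group was below each control, the nearest pair being the first mouse of each group. The log2 fold change was -0.60 (SE 0.30, interval -1.29 to 0.10, adjusted p = 0.188, limma). The mean over the 6 libraries was 0.521 FPKM, just above the filter, and the controls carried it there, since the mean of the other group was 0.394 FPKM. Among all genes tested, 20.4% had all 3 values of the *med23*Δli-labelled livers below all 3 controls and 23.3% had them above, so that the separation of *Gpc3* is one that many genes share.

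The remaining 3 fetal genes are imprinted and were close to 0. *Igf2* encodes a growth factor of the fetus and lies on chromosome 7, minus strand, 142650766 to 142666816. It had 0.0996, 0.0308 and 0.123 FPKM in the controls and 0.0790, 0.0577 and 0.0607 FPKM in the *med23*Δli-labelled livers, so that the second group lay within the first. *H19*, a long non-coding RNA 72.6 kb away on the same strand at 142575529 to 142578143, had 0.0688 and 0.0303 FPKM and was listed at 0 in the third control. In the *med23*Δli-labelled livers it had 0.0377 and 0.0350 FPKM and was listed at 0 in the third.

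*Dlk1* encodes a membrane protein of the Notch ligand family that marks fetal hepatoblasts and lies on chromosome 12, plus strand, 109452823 to 109463336. It was listed at 0 in the first control and had 0.0141 and 0.0196 FPKM in the others. In the second group it had 0.0191 FPKM in 1 liver and was listed at 0 in the first and the third. *Meg3*, the imprinted non-coding RNA 77.7 kb beyond *Dlk1*, was under the filter with 0.463, 0.358 and 0.585 FPKM in the controls and 0.381, 0.340 and 0.582 FPKM in the other group. No difference was detectable in *Igf2*, *H19*, *Dlk1* or *Meg3* at these levels.

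In order of level the 9 genes ran *Alb*, *Gc*, *Ttr*, *Afm*, *Afp*, *Gpc3*, *Igf2*, *H19* and *Dlk1*. The ranges over the 6 libraries overlapped between *Gc* and *Ttr*, between *Igf2* and *H19* and between *H19* and *Dlk1*, and every other neighbour was apart. The summed level of the 4 mature genes was 26106, 27353 and 20481 FPKM in the controls and 22231, 23870 and 17886 FPKM in the *med23*Δli-labelled livers. That of the 5 fetal genes was 7.93, 7.89 and 12.8 FPKM in the controls and 3.63, 3.90 and 3.78 FPKM in the others, of which *Afp* made up 83.1% to 93.9%. The mature sums overlapped between the groups and the fetal sums did not, and the fetal sum is close to a second reading of *Afp*.

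Ratios within a library do not change when a whole library is multiplied by a factor, but they do under quantile normalization, where the log2 fold changes were 0.25 for *Alb*, 0.30 for *Gc*, 0.52 for *Ttr* and -1.40 for *Afp*. The ratio of *Alb* to *Afp* was 2840, 3185 and 1348 in the controls and 5468, 4994 and 3725 in the *med23*Δli-labelled livers. The groups were apart, with a ratio 2.03-fold higher in the second by the means of the log2 ratios. The ratios of *Afm*, *Gc* and *Ttr* to *Afp* were 2.86-fold, 2.92-fold and 3.39-fold higher by the same measure, also without overlap. For each of the 4 ratios the two-sided p of an exact permutation test was 0.1, the smallest that 3 and 3 values allow, and 0.1 after Benjamini-Hochberg adjustment over the 4. The 4 ratios share *Afp* and are not independent.

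Within the mature genes the ratios of the deposited values were also apart between the groups. *Ttr* was 0.134, 0.107 and 0.111 of *Alb* in the controls and 0.191, 0.196 and 0.197 in the *med23*Δli-labelled livers. *Gc* was 0.130, 0.113 and 0.147 of *Alb* in the controls and 0.154, 0.194 and 0.217 in the others. Neither set overlapped, although none of the 3 genes passed the test alone. *Alb* made up 78.9%, 81.8% and 79.4% of the summed mature level in the controls and 74.1%, 71.7% and 70.6% in the other group. These ratios among mature genes were picked after their values were seen and carry no test. Under quantile normalization the log2 fold changes of *Alb* and *Gc* were close to each other (0.25 and 0.30). That of *Ttr* was 0.52. Quantile normalization sets each value by rank, and *Alb* ranked first in every library but the third control. The method therefore cannot decide whether *Gc* shifted against *Alb*.

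**Figure D3:**
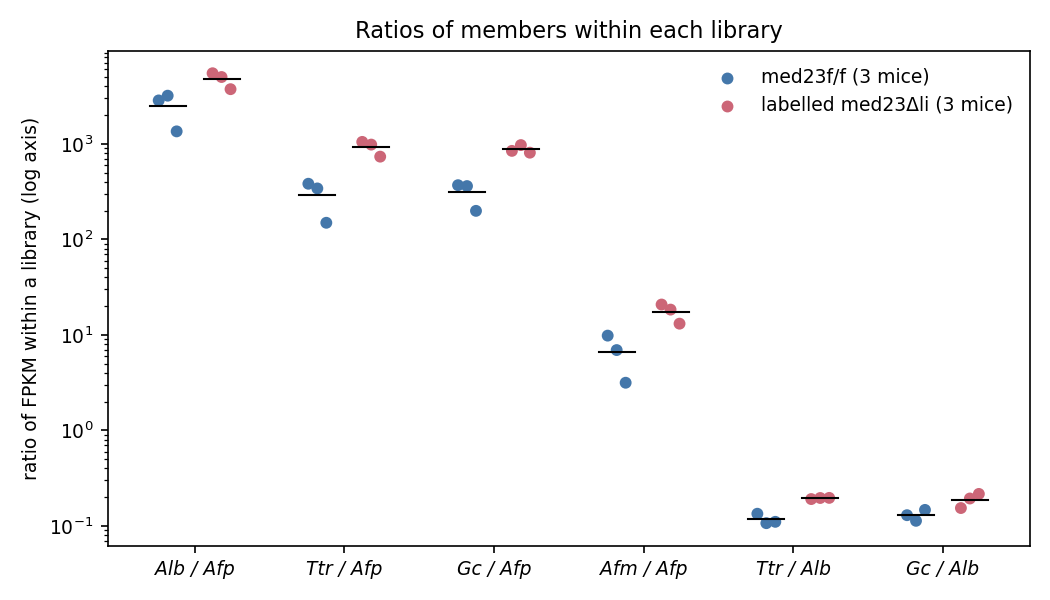
Ratios of FPKM within each library on a log axis, with 3 mice per group and bars at group means. All 6 ratios lie higher in the *med23*Δli-labelled livers without overlap. By the means of the log2 ratios, *Alb* to *Afp* was 2.03-fold and *Ttr* to *Afp* 3.39-fold higher. The bars are means of the ratios themselves and differ from these folds.

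The genes on either side of the albumin cluster gave no call. Of *Cox18*, *Ankrd17*, *Gm9958*, *5830473C10Rik* and *Rassf6*, the protein-coding neighbours that passed the filter, the log2 fold changes ran from -0.30 to 0.44 with adjusted p-values from 0.141 to 0.922 (limma), *Cox18* being the one above 0. They were looked up after the values of the cluster were known.

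The list of known or possible regulators of *Alb* or *Afp* reported here held 21 factors, all tested. Of these 3 rose and 1 fell, close to the 11.6% and 9.48% of all genes. Their median log2 fold change was 0.12 against 0.02 over all genes. *Foxa3*, a pioneer factor that opens liver chromatin, had 99.4, 96.8 and 68.5 FPKM in the controls and 35.0, 32.3 and 34.2 FPKM in the others, and fell by 1.36 on the log2 scale (SE 0.17, adjusted p = 0.00346, limma). *Foxa1* and *Foxa2*, its relatives, are in the same list and did not pass.

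*Nr1i3* encodes CAR, a nuclear receptor that senses drugs and bile pigments and whose action on *Alb* or *Afp* was not tested. It had 4.50, 7.89 and 4.83 FPKM in the controls and 32.2, 33.0 and 28.3 FPKM in the *med23*Δli-labelled livers. It rose 5.51-fold, by far beyond the spread of either group (log2 fold change 2.46, SE 0.22, adjusted p = 0.0013, limma). The calls of *Foxa3* and *Nr1i3* held under each of the 17 alternatives tried.

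Of the repressors of *Afp* named above, 1 passed. *Zfhx3* had 0.525, 0.552 and 0.643 FPKM in the controls and 1.38, 1.38 and 1.14 FPKM in the *med23*Δli-labelled livers, and rose by 1.06 on the log2 scale (SE 0.22, adjusted p = 0.0172, limma). Its call was lost without the first or the second liver of that group (adjusted p = 0.0804 and 0.0711, limma). *Zhx2* had 4.31, 4.77 and 5.49 FPKM in the controls and 6.42, 7.35 and 5.71 FPKM in the others. These groups did not overlap, a separation in this direction that 23.3% of all genes tested share. The log2 fold change was 0.41 (SE 0.16, adjusted p = 0.0979, limma). *Zbtb20* had 2.08, 1.86 and 2.54 FPKM against 2.69, 3.71 and 2.48 FPKM, with overlap (log2 fold change 0.43, adjusted p = 0.172, limma).

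Among the activators, *Cebpb*, a factor of the acute-phase response, had 51.5, 79.8 and 81.7 FPKM in the controls and 94.0, 127 and 130 FPKM in the *med23*Δli-labelled livers. It rose by 0.73 on the log2 scale (adjusted p = 0.0479, limma), and this call was lost under 10 of 17 alternatives, among them leaving out any library but the third control (adjusted p = 0.0605 to 0.149). *Hnf4a*, the central factor of hepatocyte identity, had 196, 133 and 99.9 FPKM in the controls and 89.8, 100.2 and 92.7 FPKM in the others. The groups touched at 1 liver (log2 fold change -0.55, interval -1.08 to -0.01 before adjustment, adjusted p = 0.126, limma). It passed without the third control (log2 fold change -0.78, adjusted p = 0.0241) and under quantile normalization (adjusted p = 0.0485). *Cebpa*, which keeps hepatocytes out of the cell cycle, overlapped widely (log2 fold change -0.16, adjusted p = 0.71, limma) and stood at 0.17 without the second control.

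**Figure D4:**
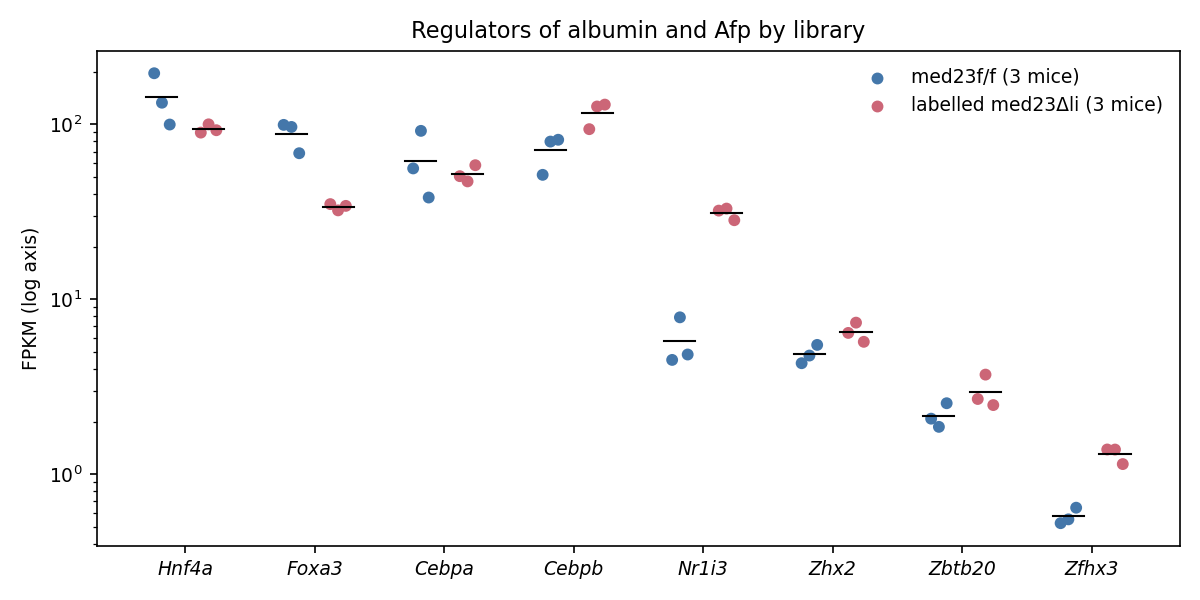
FPKM of 8 known or possible regulators of *Alb* and *Afp* in each library on a log axis, with 3 mice per group and bars at group means. *Foxa3* lies lower and *Nr1i3*, *Zfhx3*, *Cebpb* and *Zhx2* higher in the *med23*Δli-labelled livers, while *Cebpa*, *Hnf4a* and *Zbtb20* overlap. *Zhx2* did not pass the limma test.

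*H19*, *Igf2*, *Dlk1* and *Meg3* belong to a network of imprinted genes that are known to be highly expressed before birth and turned down together afterwards. The table held 24 imprinted genes of a list that takes in *Meg3* but not the 3 members, of which 16 were tested, 6 rose and none fell at an adjusted p under 0.05 (limma; 8 and 1 at an unadjusted p under 0.05), and the median log2 fold change was 0.52. One of the 6, *Peg3*, had a control mean under the filter and was tested only through the group where it is high, so the count is not read against the 11.6% rising among all genes tested. *Grb10*, an adaptor that dampens insulin and IGF signalling, had 1.11, 1.03 and 1.05 FPKM in the controls and 5.57, 4.94 and 7.52 FPKM in the *med23*Δli-labelled livers. It rose 5.18-fold (log2 fold change 2.37, SE 0.19, adjusted p = 0.000918, limma), and the call held under each of the 17 alternatives. *Plagl1*, a zinc-finger factor known to regulate other imprinted genes, had 0.587, 0.360 and 1.10 FPKM against 2.14, 1.70 and 1.81 FPKM and rose by 1.45 (adjusted p = 0.0258). *Peg3*, a paternally expressed zinc-finger gene, rose from 0.241 to 0.927 FPKM in the mean (log2 fold change 1.62, adjusted p = 0.016, limma).

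*Slc38a4*, an amino acid transporter imprinted in placenta, had 67.2, 57.7 and 70.6 FPKM in the controls and 113, 115 and 96.8 FPKM in the *med23*Δli-labelled livers, and rose by 0.73 on the log2 scale (adjusted p = 0.0125, limma). *Igf2r*, the receptor that clears IGF2 from the cell surface, had 10.3, 8.29 and 12.9 FPKM in the controls and 17.7, 19.3 and 15.3 FPKM in the others, and rose by 0.74 (adjusted p = 0.0283, limma). Its antisense partner *Airn* had at most 1.35 FPKM in any library, and no source used here states that reads were counted by strand. Without 1 library at a time, adjusted p-values past 0.05 reached 0.0968 for *Plagl1* (any *med23*Δli-labelled liver or the first control), 0.0661 for *Peg3* (any *med23*Δli-labelled liver), 0.0634 for *Slc38a4* (the first or second of them) and 0.105 for *Igf2r* (any library but the third control). With no filter the adjusted p of *Plagl1* was 0.0529, and with libraries rescaled without the 50 most abundant genes that of *Igf2r* was 0.0573.

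The receptors and partners of IGF and DLK1 numbered 14, of which 11 were tested, 3 rose and 1 fell, beside 11.6% and 9.48% of all genes tested, with a median log2 fold change of 0.29. *Igf2r*, already counted among the imprinted genes, is 1 of the 3. *Igf1*, the growth factor that takes the place of IGF2 after birth and is secreted by hepatocytes, had 182, 140 and 152 FPKM in the controls and 69.6, 99.1 and 63.6 FPKM in the *med23*Δli-labelled livers. The groups were apart, and *Igf1* fell by 1.05 on the log2 scale (SE 0.20, adjusted p = 0.0115, limma), although not past 0.05 without the first liver of the second group (adjusted p = 0.0542). *Gpc1*, a glypican like *Gpc3*, had 2.71, 2.07 and 2.28 FPKM in the controls and 5.13, 7.82 and 3.90 FPKM in the others and rose by 1.17 (adjusted p = 0.0184, limma). *Insr*, the insulin receptor, rose by 0.62 (adjusted p = 0.0474, limma). Leaving out the first or second *med23*Δli-labelled liver ended the call of *Gpc1* (adjusted p = 0.0644 and 0.0538), and leaving out any library but the third control ended that of *Insr* (up to 0.161). The call of *Insr* was lost under 9 of 17 alternatives in all. *Igf1r*, the receptor through which IGF2 signals, was under the filter in both groups.

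The table held 27 other fetal and progenitor genes, of which 17 were tested, 2 rose and 1 fell, close to the 11.6% and 9.48% of all genes tested, with a median log2 fold change of 0.29. *Sox4*, a factor of progenitor cells, had 0.888, 0.422 and 0.758 FPKM in the controls and 1.61, 1.88 and 1.49 FPKM in the *med23*Δli-labelled livers, and rose by 1.20 on the log2 scale (adjusted p = 0.024, limma). *Cd44*, a receptor for hyaluronan, rose by 0.67 (adjusted p = 0.0478), a call that was lost under 10 of 17 alternatives. *Aldoa*, the aldolase of muscle and fetal liver, had 320, 417 and 353 FPKM in the controls and 242, 223 and 185 FPKM in the others, and fell by 0.74 on the log2 scale (adjusted p = 0.0186, limma). The calls of *Sox4* and *Aldoa* were lost when any 1 *med23*Δli-labelled liver was left out, with adjusted p-values up to 0.0903 and 0.0682, and that of *Cd44* when any library but the third control was left out, up to 0.142. *Lin28b* was listed at 0 in all 6 libraries, and *Igf2bp1* and *Lin28a*, which bind fetal mRNAs and microRNAs, were under the filter.

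Other secreted plasma proteins, the group to which the 4 mature genes belong, numbered 24 in the table and were all tested. The list also holds *Ttpa*, which stays in the cytosol and is not itself secreted, so that *Rbp4* is the one secreted protein of the list whose gene rose. Of these 2 rose and 3 fell, close to the 11.6% and 9.48% of all genes tested, and the median log2 fold change was -0.08. *Ttpa*, the hepatocyte's transfer protein for vitamin E, had 37.3, 47.9 and 35.6 FPKM in the controls and 70.1, 83.2 and 94.6 FPKM in the *med23*Δli-labelled livers. It rose by 1.04 on the log2 scale (SE 0.17, adjusted p = 0.00798, limma) and kept its call under each of the 17 alternatives. *Rbp4*, the retinol carrier that travels bound to transthyretin, had 1954, 2495 and 1836 FPKM in the controls and 4103, 3867 and 3265 FPKM in the others. It rose by 0.84 (adjusted p = 0.0171, limma), and the ratio of *Rbp4* to *Ttr* was 0.707 to 1.04 in the controls and 1.15 to 1.31 in the *med23*Δli-labelled livers.

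*Serpina7*, which encodes the thyroxine-binding globulin and so shares its cargo with transthyretin and albumin, had 33.5, 34.0 and 60.1 FPKM in the controls and 10.2, 20.6 and 13.3 FPKM in the *med23*Δli-labelled livers. It fell by 1.53 on the log2 scale (SE 0.31, adjusted p = 0.0147, limma). *Ambp*, the precursor of a heme-binding protein and a protease inhibitor, fell by 0.75 (adjusted p = 0.0167, limma), and *Apoc3*, which slows the clearance of triglycerides, fell by 0.83 (adjusted p = 0.0309, limma). These calls too depended on single libraries. Without the first *med23*Δli-labelled liver the adjusted p was 0.0704 for *Rbp4*, 0.0558 for *Serpina7*, 0.0713 for *Ambp* and 0.0988 for *Apoc3*. Calls were also lost without the first control or the second *med23*Δli-labelled liver for *Rbp4* and *Ambp*, without the third *med23*Δli-labelled liver for *Serpina7*, and without any library but the third control for *Apoc3*. With no filter on low genes the adjusted p was 0.0701 for *Rbp4*, 0.0725 for *Ambp* and 0.0884 for *Apoc3*.

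Of 17 genes reported here that take up, recycle or use the cargo of the albumin family 11 were tested and 4 rose, beside 11.6% of all genes tested, with a median log2 fold change of 0.38. *Rbp4* and *Ttpa*, already counted among the plasma proteins, are 2 of the 4. *Lrp1*, a clearance receptor of hepatocytes, had 34.4, 34.0 and 29.0 FPKM in the controls and 43.2, 49.5 and 49.5 FPKM in the *med23*Δli-labelled livers and rose by 0.55 (adjusted p = 0.0265, limma). *Slc10a1*, the bile acid importer NTCP, had 26.5, 39.4 and 18.7 FPKM against 55.5, 55.2 and 56.8 FPKM and rose by 1.05 (adjusted p = 0.0235, limma). Both calls were lost without any 1 *med23*Δli-labelled liver, and that of *Slc10a1* also without the first control, with adjusted p-values up to 0.105 for *Lrp1* and 0.0817 for *Slc10a1*. *Fcgrt* and *B2m*, the chains of the neonatal Fc receptor that rescues albumin from degradation, had log2 fold changes of 0.01 and 0.11 and did not pass (adjusted p = 0.967 and 0.661, limma).

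**Figure D5:**
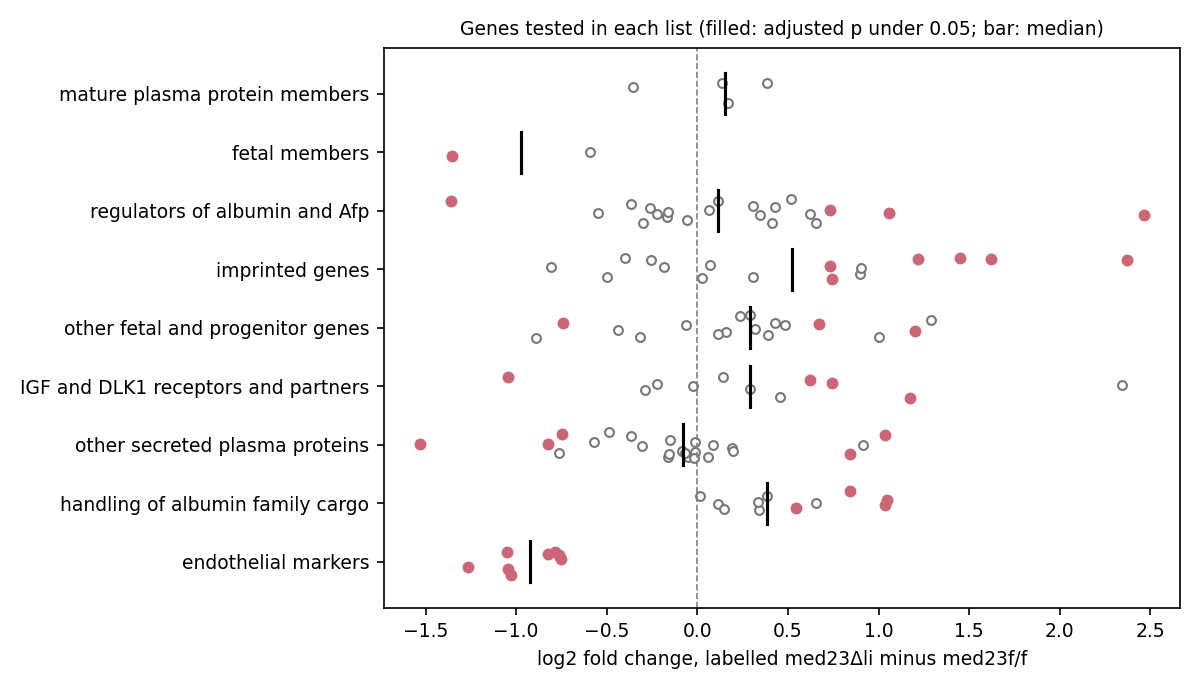
Log2 fold change of every tested gene in 9 lists, labelled *med23*Δli minus *med23*f/f, with filled points for an adjusted p under 0.05 (limma) and a bar at the median of each list. The 4 mature genes are open points from -0.36 to 0.38, *Afp* is the filled fetal gene at -1.35, and the imprinted genes have 6 filled points, all above 0.

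The genes most like each member over the 6 libraries, by Pearson's r of log2(FPKM + 0.1) among genes averaging 1 FPKM or more, are given as a description, with 10892 genes or more compared over 6 points that share 2 groups. For *Afp* they were *Cyp2a5* (r = 0.998), *Nrg4* (0.995) and *Hspg2* (0.992). *Cyp2a5*, a coumarin hydroxylase, and *Nrg4*, a growth factor of the neuregulin family, themselves fell, with log2 fold changes of -2.27 and -2.60 (adjusted p = 0.00874 and 0.00388, limma). For *Alb* they were *Cluap1* (0.994), *Thoc3* (0.990) and *Prpf40b* (0.989), and for *Gpc3* *Impa2* (0.993), *Gpr137* (0.991) and *Lrwd1* (0.991). For *Ttr* they were *Gps1* (0.985), *Cwc15* (0.984) and *Ppih* (0.979), for *Gc* *Rpp40* (0.992), *Fads1* (0.980) and *St3gal3* (0.978), and for *Afm* *Gm6793* (0.997), *Rai14* (0.991) and *Tcf7l2* (0.989). No member was among the nearest genes of another member. *Gpc3*, *Igf2*, *H19* and *Dlk1* averaged under 1 FPKM and could not be. With so few genes kept from so many, no conclusion is drawn from this. *Ttr* and *Afm* had r = 0.85 with each other, and *Ttr* and *Afp* had r = -0.81.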

How the data were processed

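Whole-liver RNA of 6 mice was used, each library 1 mouse. Per the paper's methods and the submitters' processing notes, reads were aligned by the authors with TopHat (mouse genome mm10), checked with FastQC and quantified with Cuffdiff. Versions, the annotation and the Cuffdiff scaling are not given in the sources used here. The table deposited by the authors gives FPKM for each library and each group. It also gives the authors' log2 fold changes, test statistics, p-values and q-values, which were not used.

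Genes averaging 0.5 FPKM or more were compared as log2(FPKM + 0.1) with limma 3.58.1 in R 4.3.3 (lmFit, eBayes with a trend, Benjamini-Hochberg adjustment, threshold 0.05) and no replicate block. The exact permutation test was run in scipy 1.17.1. On simulated data with 11956 genes, 76 of 100 genes changed by 1.4 on the log2 scale were recovered. Of 100 changed by 2, 92 were recovered, and 7 unchanged genes were called. The simulation used independent normal errors and changed far fewer genes than the 1384 that rose and 1133 that fell in the data. Its rates need not hold for these data. Precision rests on 3 mice per group. FPKM keep no read counts, so the reads behind each gene's value and each library's own total are unknown, and no counting interval can be given.

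Members and lists were chosen with earlier results of these data known. Genes named beyond the members are *Med23*, up to 4 per list and direction with the lowest adjusted p under 0.05, 6 genes set by name (*Zhx2*, *Zbtb20*, *Hnf4a*, *Cebpa*, *Meg3*, *Igf2r*) and the 3 genes most like each member. A few others were added after their values were seen: neighbours of the albumin cluster and list members used as reference points (*Foxa1*, *Foxa2*, *Airn*, *Igf1r*, *Lin28a*, *Lin28b*, *Igf2bp1*, *Fcgrt*, *B2m*, *Adipoq*). Positions are from GENCODE M21 (GRCm38, the assembly of mm10). Promoters are RefSeq windows on GRCm38.p6, found for 7 of the 8 members searched, *Ttr* being left out of the search. Motifs were searched on both strands in the 250 bases before each start. Python 3.11.15, numpy 2.4.6, pandas 2.3.3 and matplotlib 3.10.9 were used otherwise. Some genes and a motif are not reported here, and list counts leave those genes out. The alternatives are given in the closing section.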

Additional observations from a re-analysis of the deposited data

How the results depend on the processing

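*Afp* kept its direction and its call under all 17 alternatives, its log2 fold change running from -1.49 to -1.10 and its adjusted p up to 0.039 (limma). *Gc*, *Ttr* and *Gpc3* stayed uncalled with one sign throughout, *Gpc3* having no value under a filter of 1 FPKM. *Alb* turned to 0.25 under quantile normalization (adjusted p = 0.417, limma), where its value is set by its rank. It ran from -0.49 to -0.22 without single libraries. *Afm* ran from -0.074 to 0.38 without single libraries. *Dlk1*, which has no test, moved to -0.43 with a pseudocount of 0.01 and -0.44 under quantile normalization. *Cebpa* ran from -0.47 to 0.17, the latter without the second control. Leaving out 1 library, the genes that rose numbered 397 to 1723 and those that fell 343 to 1420 (1384 and 1133 with all libraries). With a change of more than 2-fold added, they numbered 321 to 718 and 255 to 531 (532 and 412 with all). Without *med23*Δli-labelled livers 1, 2 or 3, in turn, 397, 478 and 553 genes rose, and without the second control 744 fell. Rescaled without the 50 most abundant genes, 935 genes rose and 1605 fell. A pseudocount of 1 left 229 genes that fell more than 2-fold. With the replicate number as a block 809 genes rose and 614 fell, and *Afp* had an adjusted p of 0.0171 under this replicate block. It left *Zfhx3*, *Sox4*, *Cd44*, *Igf2r*, *Insr* and *Lrp1* at adjusted p-values of 0.057, 0.0584, 0.0668, 0.0701, 0.105 and 0.0687. Same-numbered mice did not deviate together (r from -0.12 to -0.02 over genes), so the numbers are not taken to pair the mice. The causes of these shifts were not tested. The median change of all genes tested stayed between -0.08 and 0.05 under each scaling.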
